A study of Mus musculus with 12 samples.

Results

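The respiratory complexes III, IV and V and cytochrome c were followed at the level of messenger RNA in mouse heart. The genes were taken by name (*Uqcr* genes and *Cyc1* for complex III, *Cycs* for cytochrome c, *Cox4* to *Cox8* genes for complex IV, *Atp5* genes for complex V), which gave 45 of the 37074 gene names on the array. Complex III had 9 of them, cytochrome c 1, complex IV 17 and complex V 18. They were read by 69 probes, of which 66 were tested, so that 44 of the 45 genes had a test and only *Cox8c* had none. The name rule also takes in *Cox7a2l*, *Atp5s* and *Atp5sl*, which are not core subunits, and the pseudogene *Atp5c1-ps*. *Cox5b* was not analysed here.

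Hearts came from 12 male C57BL6/J mice, aged 5 months, in 4 groups of 3 with 1 array per mouse. Control mice (C) received neither agent, and control mice with pargyline (C+P) received 50 mg/kg of this inhibitor of monoamine oxidase (MAO) per day for 12 weeks. Diabetic mice (D) received streptozotocin, which kills the beta cells of the pancreas, on 5 days at a daily dose of 50 mg/kg, and diabetic mice with pargyline (D+P) received both agents. Streptozotocin models a loss of insulin, and heart muscle was taken as whole tissue. In such tissue fewer cells of a type and less RNA per cell cannot be told apart.

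Complex III passes electrons from ubiquinol to cytochrome c, a small soluble carrier, and complex IV passes them from there to oxygen. Both move protons across the inner mitochondrial membrane, and complex V, the ATP synthase, uses the returning protons to make ATP. The heart depends on this route for nearly all of its ATP, and several complex IV subunits exist as a heart and muscle form beside a form found in most tissues.

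Values are log2 intensities after quantile normalisation, a change is a difference of log2 values, and each gene is represented by its brightest tested probe. A gene passed at a Benjamini-Hochberg adjusted p of 0.05 in limma, adjusted over all 30857 tested probes. Of the 45 genes, 43 were well above background on all 12 arrays, and 0 spots were saturated. C and D lay on 1 slide and C+P and D+P on another, so both diabetes comparisons are within a slide, and slide and pargyline cannot be told apart in C+P versus C or D+P versus D. On both slides the non-diabetic arrays lay in row 1 and the diabetic arrays in row 2, so diabetes and slide row cannot be told apart. The median coefficient of variation of repeated spots was 23.0% on D replicate 1, 15.1% on D+P replicate 1 and 14.5% on C+P replicate 1, and between 3.78% and 10.3% on the other arrays. The 11 cardiomyocyte markers had a mean log2 intensity between 16.07 and 16.40 on every array. Of 6 skeletal muscle markers on the array, *Myh1* and *Actn3* were well above background on none, while *Acta1*, *Tnnt3*, *Myh4* and *Mylpf* were tested. In D+P versus C+P 2 of these 4 did not overlap between the groups, *Acta1* at -1.60 and *Tnnt3* at -0.40, beside 13.9% of all probes, and in C+P versus C the same pair lay higher without overlap, at 0.70 and 0.31, beside 15.6%. None of the 4 passed in limma in any contrast.

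One gene of the family rose in diabetic hearts. *Cox6b2*, an isoform of the COX6B subunit of complex IV known mainly from testis, was 2.00-fold higher in diabetes averaged over pargyline, a call near the threshold that 9 of 23 alternative settings kept. All other tested members stayed short of the threshold in all 6 contrasts. The median log2 change of the 44 genes in diabetes averaged over pargyline was -0.00 after quantile normalisation. It was 0.03 when each array was scaled by its 75th percentile instead. In diabetes averaged over pargyline, 42 of the 44 had a log2 difference under 0.5 in size (not *Cox6b2* and *Atp5c1-ps*), and for 42 of the 44 the 95% interval lay within 1 of 0 (not *Cox6b2* and *Cox7b2*). For *Cox4i2*, *Cox7b* and *Atp5c1-ps* the interval left out 0, though none of them passed.

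The 250 bases before the annotated start of 4 members are shown from RefSeq (GRCm38.p6), 5′ to 3′ along the gene. *Cox6b2* is shown because it carries the one call, *Cox6b1* because it is the form of the same subunit found in most tissues, and *Cycs* and *Cox6a1* as examples of family promoters with motif matches. Capitals mark matches to the letters searched on both strands, which are listed further on.
Cox6b2, chr7:4753095-4753344 (- strand): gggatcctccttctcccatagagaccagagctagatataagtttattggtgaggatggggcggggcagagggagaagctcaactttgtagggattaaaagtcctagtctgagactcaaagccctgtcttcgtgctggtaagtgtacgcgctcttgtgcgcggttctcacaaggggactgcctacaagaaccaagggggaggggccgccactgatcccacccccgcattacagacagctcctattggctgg
Cox6b1, chr7:30626115-30626364 (- strand): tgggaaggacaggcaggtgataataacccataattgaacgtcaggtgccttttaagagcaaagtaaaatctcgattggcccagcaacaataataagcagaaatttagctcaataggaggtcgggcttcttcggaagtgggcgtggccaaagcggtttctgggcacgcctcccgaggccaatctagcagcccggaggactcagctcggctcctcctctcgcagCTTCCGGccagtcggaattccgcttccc
Cycs, chr6:50566570-50566819 (- strand): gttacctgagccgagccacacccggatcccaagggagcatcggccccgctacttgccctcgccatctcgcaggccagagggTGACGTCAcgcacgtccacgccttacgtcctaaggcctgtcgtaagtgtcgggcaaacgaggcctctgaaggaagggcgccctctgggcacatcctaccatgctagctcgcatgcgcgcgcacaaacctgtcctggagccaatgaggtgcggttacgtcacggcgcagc
Cox6a1, chr5:115348959-115349208 (- strand): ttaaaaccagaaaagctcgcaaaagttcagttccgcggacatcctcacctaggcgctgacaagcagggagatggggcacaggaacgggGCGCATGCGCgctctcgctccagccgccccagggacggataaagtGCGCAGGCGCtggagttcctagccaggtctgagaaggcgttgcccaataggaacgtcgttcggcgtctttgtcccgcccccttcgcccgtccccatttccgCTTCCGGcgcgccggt
The *Cox6b2* stretch held 0 matches. In *Cox6b1* the capitals are an ETS match, in *Cycs* a CREB match, and in *Cox6a1* NRF1 and ETS matches.

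In D versus C, 0 of the 44 genes passed in limma, where 0.00648% of all tested probes did. At an unadjusted p of 0.05, 2 were higher (*Cox6b2* and *Atp5c1-ps*) and 0 lower, beside 10.9% of all probes in either direction. The 3 arrays of D did not overlap those of C for 10 of the 44 genes, 8 higher and 2 lower, beside 22.4% of all probes. The share of the family was 22.7%, near that background. The median change was 0.02 beside -0.01 over all probes, and 41 of 44 genes had a log2 difference under 0.5 in size.

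In D+P versus C+P, 0 of the 44 passed, beside 0.0454% of all probes. At an unadjusted p of 0.05, 1 was higher (*Cox6b2*) and 0 lower, beside 7.49% of all probes. The groups did not overlap for 3 genes, of which *Cox6b2* was higher and *Uqcrq* and *Atp5k* lower, beside 13.9% of all probes. The second *Atp5k* probe was higher in D+P, by 0.12, with overlap. The median change was -0.02, and that of all probes 0.00.

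In diabetes averaged over pargyline, 1 of the 44 passed, beside 0.126% of all probes. At an unadjusted p of 0.05, 3 genes were higher (*Cox6b2*, *Cox4i2* and *Atp5c1-ps*) and 1 lower (*Cox7b*), beside 11.5% of all probes. By brightest probes, only *Cox6b2* among the 44 had groups that did not overlap in the same direction in both pairs. Over all tested probes the share was 2.51%. Of the 66 tested member probes, 2 (3.03%) were separate in both pairs. Besides *Cox6b2*, 1 probe that was not the brightest of its gene lay lower in both. The lowest of the 66 was a further *Uqcrb* probe, at -0.92.

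**Figure D1:**
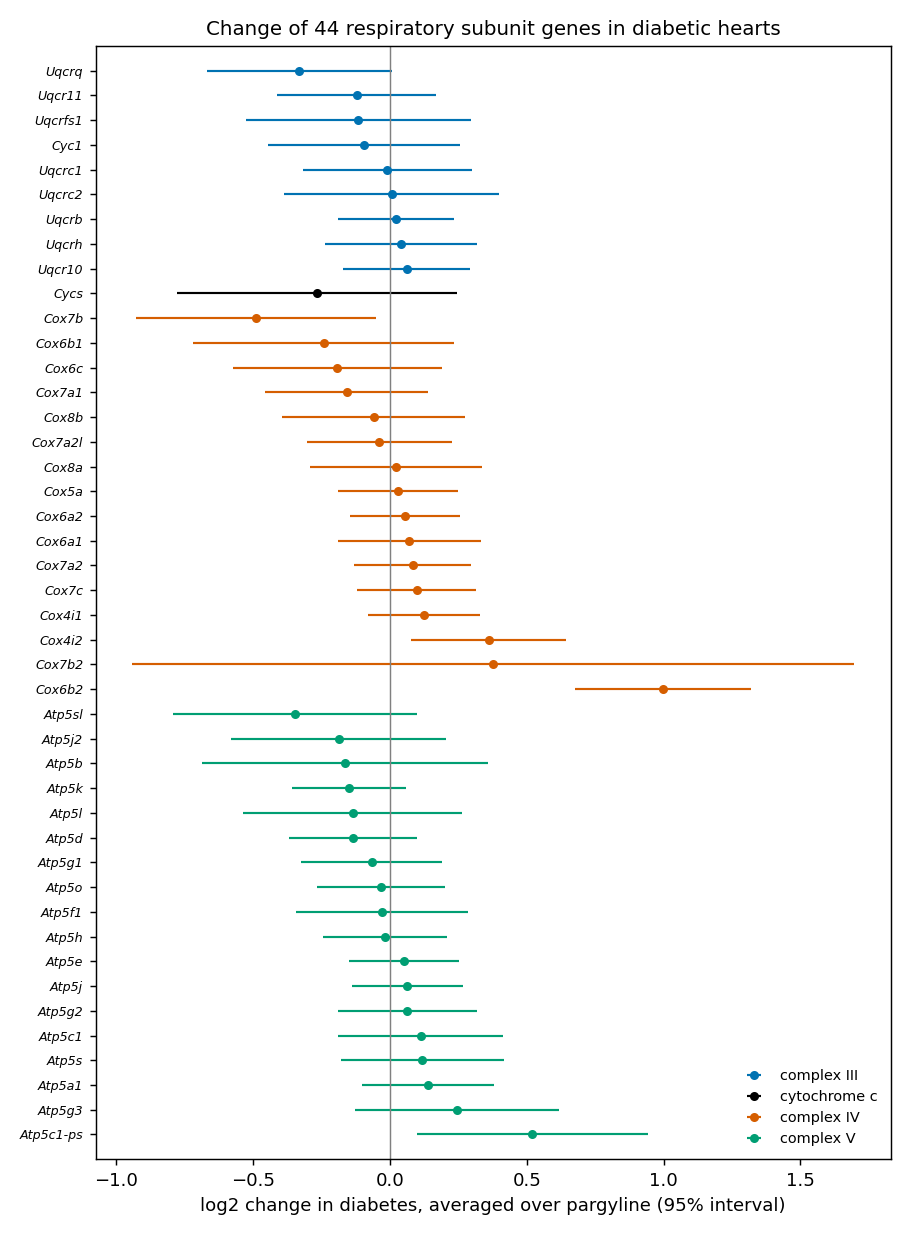
Change of the 44 tested genes in diabetes averaged over pargyline, on the log2 scale (horizontal axis), with 95% intervals from limma as bars and 1 row per gene, coloured by complex. *Cox6b2* lies at 1.00 with an interval of 0.68 to 1.32, and 42 of the 44 points lie within 0.5 of 0.

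Complex III had 9 tested genes, of which 0 passed, and its median change in diabetes averaged over pargyline was -0.01. *Cyc1* encodes cytochrome c1, the haem subunit that hands electrons to cytochrome c. *Cyc1* read 15.79, 16.03 and 15.99 in C, 16.70, 15.93 and 15.87 in C+P, 16.21, 15.95 and 16.00 in D, and 16.09, 15.74 and 15.76 in D+P. C+P replicate 1 was the highest of the 12 arrays, and all 4 groups overlapped. The change was 0.12 in D versus C and -0.30 in D+P versus C+P, and the latter was -0.03 by the second *Cyc1* probe and between -0.45 and -0.03 when 1 array was left out.

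*Uqcrfs1* encodes the Rieske iron-sulfur protein, which takes electrons from ubiquinol. *Uqcrfs1* read 15.11, 15.13 and 14.99 in C, 15.17, 15.11 and 14.74 in C+P, 14.11, 15.16 and 15.13 in D, and 15.01, 14.92 and 15.23 in D+P. D replicate 1 was the lowest of the 12 arrays, while the other D arrays lay beside those of C. Its change in diabetes averaged over pargyline was -0.11 (95% interval -0.53 to 0.30), and it turned to 0.06 without D replicate 1. *Uqcrc2* encodes a core protein of the matrix side. *Uqcrc2* read 15.40, 15.36 and 15.48 in C, 15.04, 15.54 and 15.35 in C+P, 14.59, 15.58 and 15.52 in D, and 15.54, 15.36 and 15.61 in D+P. Again D replicate 1 stood below the other 11 arrays.

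*Uqcrq* encodes a small subunit bound near cytochrome b. *Uqcrq* read 16.83, 16.79 and 16.78 in C, 16.88, 16.61 and 16.68 in C+P, 16.03, 16.69 and 16.88 in D, and 16.17, 16.58 and 16.25 in D+P. The D+P arrays all lay below those of C+P, whereas D replicate 3 lay above all C arrays. Its change in diabetes averaged over pargyline was -0.33 (95% interval -0.67 to 0.01), with a limma adjusted p of 0.448. *Uqcr11*, another small subunit, read 16.00, 16.09 and 16.15 in C, 16.50, 16.18 and 15.90 in C+P, 15.71, 16.00 and 16.15 in D, and 16.23, 15.94 and 16.05 in D+P. Its groups overlapped, and its change was -0.12 (95% interval -0.41 to 0.17). The brightest probes of the remaining complex III genes (*Uqcr10*, *Uqcrb*, *Uqcrc1* and *Uqcrh*) gave between -0.01 and 0.06 in diabetes averaged over pargyline. The second *Uqcr10* probe gave 0.25 there and 0.36 in D versus C, beside 0.06 and 0.11 for the brightest. The arrays of that second probe did not overlap in D versus C. The other *Uqcrb* probes gave -0.18 and -0.92 in diabetes averaged over pargyline, and further probes of a gene were not required to be well above background.

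*Cycs* encodes the cytochrome c of somatic tissues. *Cycs* read 15.57, 15.52 and 15.47 in C, 14.67, 15.22 and 15.14 in C+P, 14.89, 15.61 and 15.52 in D, and 14.64, 13.94 and 15.36 in D+P. The C+P arrays lay below all C arrays, and D+P replicate 2 was the lowest of the 12. The change was -0.17 in D versus C and -0.36 in D+P versus C+P, -0.51 in C+P versus C and -0.69 in D+P versus D, and the last had a limma adjusted p of 0.388. The second *Cycs* probe gave 0.24 in D versus C and 0.10 in C+P versus C, both opposite in sign to the first probe, and -0.44 in D+P versus C+P. In D+P versus D it gave -0.58, of the same sign as the first, without overlap and with a limma adjusted p of 0.323 (unadjusted p 0.0308). *Cyct*, the testis cytochrome c, was well above background on 0 arrays of each group. It was looked up after the results were seen.

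Complex IV had 16 tested genes, of which *Cox6b2* passed, and its median change in diabetes averaged over pargyline was 0.04. The *Cox6b2* probe lies on the minus strand of chromosome 7 from 4703488 to 4703547 in mm9, the build of the files, whose annotation does not say whether a probe lies in coding sequence or a UTR. *Cox6b2* read 6.64, 6.56 and 6.78 in C, 6.70, 6.51 and 6.76 in C+P, 7.75, 7.95 and 7.79 in D, and 7.05, 7.92 and 7.48 in D+P. Every D and D+P array lay above every C and C+P array, and the probe was well above background on all 12. D+P was the most spread of the groups, with an SD of 0.43 beside 0.10 to 0.13 in the others. The change was 1.00 (SE 0.15, 95% interval 0.68 to 1.32), with a limma adjusted p of 0.0374.

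Within the slides, the *Cox6b2* difference was 1.17 in D versus C and 0.83 in D+P versus C+P, with limma adjusted p of 0.208 and 0.304. The interaction (the diabetes change under pargyline less the diabetes change without it) was -0.35 (95% interval -0.99 to 0.30), with a limma adjusted p of 0.799. C+P versus C gave 0.00 (95% interval -0.45 to 0.46) and D+P versus D gave -0.35. The direction in diabetes held under all 23 alternatives, between 0.82 and 1.14, but the adjusted p was under the threshold in 9 of them. Of the 12 fits that left out 1 array, 1 (without D+P replicate 1) kept the call, and the adjusted p reached 0.142. Without the 3 arrays of most variable repeated spots the change was 1.14, with an adjusted p of 0.0343.

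All 5 measured macrophage markers were lower in diabetes averaged over pargyline, by 0.23 to 0.60, and 0 of them passed in limma. At an unadjusted p of 0.05, 3 of the 5 were lower, beside 11.5% of all probes, and 1 (*Cd68*) was separate in both pairs, beside 2.51%. Their log2 intensities summed to between 53.5 and 55.1 on the C arrays, 53.4 and 55.2 in C+P, 52.3 and 52.4 in D, and 50.5 and 52.0 in D+P. The adipocyte list had values in both directions, with 3 of 4 tested markers higher in diabetes averaged over pargyline, 2 of them at an unadjusted p of 0.05 (11.5% of all probes), and 0 that passed. *Fabp4* (0.56) and *Cidea* (0.27) were higher without overlap in both pairs of groups, as 2.51% of all probes were separate in both, whereas *Adipoq*, *Plin1* and *Ucp1* were well above background on no array. In D versus C all 4 were higher, with a median of 0.49, and in D+P versus C+P the median was -0.19. The 6 adipocyte markers summed to between 42.6 and 45.6 in C, 41.6 and 43.9 in C+P, 43.95 and 46.01 in D, and 41.7 and 43.6 in D+P.

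Of 3 tested atrial markers 2 lay higher in D than in C without overlap, beside 22.4% of all probes. *Nppa*, a natriuretic peptide, had a value of 1.22 in diabetes averaged over pargyline, with a limma adjusted p of 0.0546. The other 2 tested atrial markers were lower there, and the median of the 3 was -0.05. The median of these 3 was 0.94 in D versus C and -0.37 in D+P versus C+P, and *Sln* was well above background on no array. The 4 atrial markers summed to between 28.7 and 30.5 in C, 30.6 and 32.0 in C+P, 31.8 and 32.3 in D, and 28.8 and 31.5 in D+P. Among the 11 cardiomyocyte markers the median was 0.02 in diabetes averaged over pargyline, with 6 higher and 5 lower. *Ryr2*, the calcium release channel, was lowest at -0.99, with a limma adjusted p of 0.133. *Ryr2* was the 1 of the 11 (9.09%) that was lower without overlap in both pairs, beside 2.51% of all probes separate in both. Of 6 fibroblast markers *Lum* was higher without overlap in both pairs, at 0.42, beside 2.51% of all probes separate in both. The 6 split into 3 higher and 3 lower in diabetes averaged over pargyline, with a median of 0.06. No endothelial, smooth muscle or erythroid marker was separate in both pairs, beside 2.51% of all probes. Of 6 endothelial markers 2 were lower in D than in C without overlap, beside 22.4% of all probes. In that comparison 3 of the 6 were higher and 3 lower. The part of these cell types in the *Cox6b2* result was not tested.

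*Cox8c*, a further testis form of complex IV, was well above background on 0 arrays of each group.

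**Figure D2:**
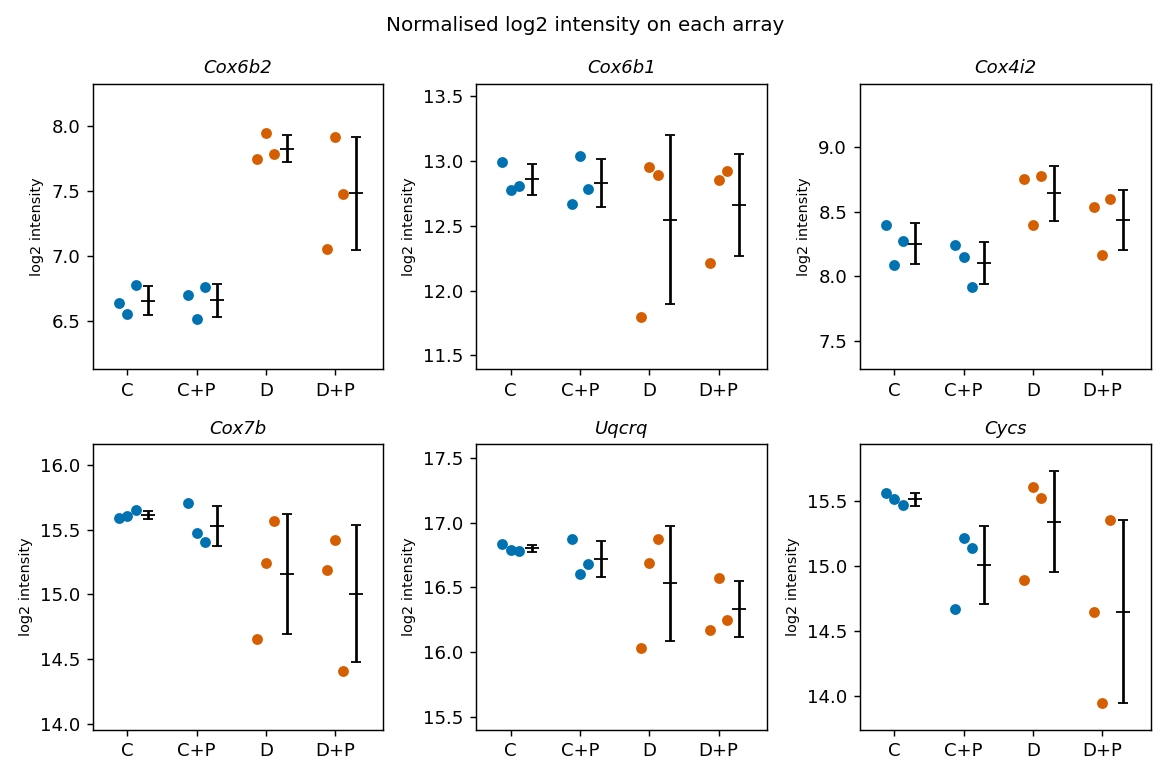
Normalised log2 intensity (vertical axis) of 6 genes on each of the 12 arrays by group, with non-diabetic arrays in blue, diabetic arrays in orange, and the mean and SD of 3 arrays in black. For *Cox6b2* the 6 diabetic arrays lie between 7.05 and 7.95, all above the 6 non-diabetic arrays, and for *Cox6b1* the low points are D replicate 1 and D+P replicate 1.

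*Cox6b1*, the form of the same subunit found in most tissues, did not pass. *Cox6b1* read 12.99, 12.77 and 12.81 in C, 12.67, 13.04 and 12.78 in C+P, 11.79, 12.96 and 12.89 in D, and 12.21, 12.85 and 12.92 in D+P. D replicate 1 and D+P replicate 1 were low, and the other 4 diabetic arrays lay among the non-diabetic ones. Its change was -0.24 (95% interval -0.72 to 0.23).

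COX4 takes part in the regulation of complex IV, with *Cox4i1* as the form of most tissues and *Cox4i2* known from lung and from low oxygen. *Cox4i1* read 16.32, 16.35 and 16.27 in C, 16.56, 16.51 and 16.41 in C+P, 16.66, 16.41 and 16.51 in D, and 16.62, 16.48 and 16.50 in D+P. The D arrays lay above those of C, and so did the C+P arrays, while D+P and C+P overlapped. *Cox4i2* read 8.40, 8.09 and 8.27 in C, 8.24, 8.15 and 7.92 in C+P, 8.75, 8.40 and 8.77 in D, and 8.54, 8.17 and 8.60 in D+P. D replicate 2 met the highest C array at 8.40 and the other D arrays lay above all of C, while D+P overlapped C+P. The *Cox4i2* change was 0.36 (95% interval 0.08 to 0.64), with a limma adjusted p of 0.341, and the *Cox4i1* change was 0.12 (95% interval -0.08 to 0.33).

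COX6A has a form of most tissues, *Cox6a1*, and a heart and muscle form, *Cox6a2*. *Cox6a1* read 15.05, 14.89 and 14.77 in C, 14.99, 14.73 and 14.77 in C+P, 14.82, 14.91 and 14.85 in D, and 15.31, 14.79 and 14.93 in D+P. *Cox6a2* read 17.10, 17.18 and 17.21 in C, 17.22, 17.26 and 17.07 in C+P, 17.26, 17.33 and 17.30 in D, and 17.11, 17.11 and 17.26 in D+P. The D arrays of *Cox6a2* lay just above those of C, and no other pair of groups was separate for either gene in diabetes. Their changes were 0.07 (95% interval -0.19 to 0.33) and 0.06 (95% interval -0.14 to 0.26).

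COX7A likewise has a heart and muscle form, *Cox7a1*, a form of most tissues, *Cox7a2*, and the related *Cox7a2l*, which joins complex III to complex IV in supercomplexes. *Cox7a1* read 16.98, 16.81 and 16.95 in C, 17.05, 16.87 and 16.78 in C+P, 16.52, 16.83 and 16.89 in D, and 16.60, 16.52 and 17.14 in D+P. *Cox7a2* read 15.27, 15.33 and 15.39 in C, 15.34, 15.41 and 15.25 in C+P, 15.62, 15.38 and 15.36 in D, and 15.35, 15.29 and 15.48 in D+P. *Cox7a2l* read 14.42, 14.91 and 14.85 in C, 14.91, 15.00 and 14.92 in C+P, 14.49, 14.83 and 14.82 in D, and 14.97, 14.77 and 14.89 in D+P. All groups of these 3 genes overlapped in both diabetes comparisons. Their changes were -0.16 (95% interval -0.45 to 0.14), 0.08 (95% interval -0.13 to 0.30) and -0.04 (95% interval -0.30 to 0.23).

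*Cox7b* encodes a small subunit needed for the assembly of complex IV. *Cox7b* read 15.59, 15.60 and 15.65 in C, 15.70, 15.47 and 15.40 in C+P, 14.66, 15.24 and 15.57 in D, and 15.19, 15.42 and 14.41 in D+P. All D arrays lay below those of C, and D+P replicate 3 was the lowest of the 12. Its change was -0.49 (95% interval -0.93 to -0.05), with a limma adjusted p of 0.398. *Cox7b2*, its paralogue known mainly from testis, read 10.80, 10.70 and 11.68 in C, 8.39, 11.18 and 12.36 in C+P, 11.86, 10.61 and 10.59 in D, and 11.63, 12.07 and 10.60 in D+P. Its arrays spread over almost 4 log2 units, with C+P replicate 1 the lowest, and its interval in diabetes averaged over pargyline, -0.94 to 1.70, was the widest of the family.

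COX8 has *Cox8a* in most tissues and *Cox8b* in heart and muscle. *Cox8a* read 14.91, 14.55 and 14.50 in C, 14.85, 14.62 and 14.48 in C+P, 15.03, 14.64 and 14.52 in D, and 14.79, 14.35 and 14.73 in D+P. *Cox8b* read 16.52, 16.67 and 16.56 in C, 16.20, 16.48 and 16.60 in C+P, 16.62 and 16.74 in D, and 15.81, 16.53 and 16.31 in D+P. The *Cox8b* spot of D replicate 1 carried an outlier flag and was set to missing, so D has the other two arrays only. The groups of both genes overlapped in diabetes, and their changes were 0.02 (95% interval -0.29 to 0.34) and -0.06 (95% interval -0.40 to 0.28). *Cox6c*, a small subunit, read 16.53, 16.19 and 16.51 in C, 16.83, 16.36 and 16.28 in C+P, 16.08, 16.44 and 16.72 in D, and 15.70, 16.42 and 16.20 in D+P. D+P replicate 1 was its lowest array, and its change was -0.19 (95% interval -0.57 to 0.19).

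Complex V had 18 tested genes, of which 0 passed, and its median change in diabetes averaged over pargyline was -0.02. *Atp5a1* and *Atp5b* encode the alpha and beta subunits, which form the catalytic head. *Atp5a1* read 16.98, 16.83 and 16.87 in C, 17.02, 16.96 and 16.71 in C+P, 17.13, 17.19 and 17.00 in D, and 16.95, 16.77 and 17.16 in D+P. The D arrays lay just above those of C, and D+P overlapped C+P. *Atp5b* read 16.99, 16.98 and 17.11 in C, 16.95, 17.09 and 16.95 in C+P, 15.65, 17.09 and 17.24 in D, and 17.06, 17.02 and 17.03 in D+P. D replicate 1 stood apart below the other 11 arrays. The *Atp5a1* change was 0.14 (95% interval -0.10 to 0.38) and the *Atp5b* change -0.16 (95% interval -0.69 to 0.36), which turned to 0.09 without D replicate 1. In D versus C the 3 probes of *Atp5b* gave -0.37, 0.47 and -0.14.

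The c subunit, which forms the rotating ring in the membrane, is encoded by *Atp5g1*, *Atp5g2* and *Atp5g3*, whose mature proteins are the same. *Atp5g1* read 17.03, 16.86 and 16.97 in C, 17.03, 16.98 and 16.84 in C+P, 16.69, 17.25 and 17.07 in D, and 16.75, 16.87 and 16.69 in D+P. *Atp5g2* read 15.14, 15.08 and 15.10 in C, 15.18, 14.81 and 14.58 in C+P, 15.23, 15.15 and 15.05 in D, and 14.96, 14.99 and 14.89 in D+P. *Atp5g3* read 15.99, 16.50 and 16.56 in C, 15.73, 16.54 and 16.46 in C+P, 16.87, 16.72 and 16.78 in D, and 16.13, 16.51 and 16.24 in D+P. For *Atp5g3* the D arrays lay above those of C and also above those of D+P. Its second, dimmer probe went the other way, at -0.19 in D versus C and 0.33 in D+P versus D, with overlap in both. The changes were -0.07 (95% interval -0.32 to 0.19), 0.06 (95% interval -0.19 to 0.32) and 0.25 (95% interval -0.13 to 0.62).

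The largest complex V changes in diabetes averaged over pargyline were in genes that are not core subunits. *Atp5c1-ps* read 12.82, 13.79 and 13.64 in C, 13.83, 13.49 and 13.10 in C+P, 14.36, 14.12 and 13.96 in D, and 13.74, 13.66 and 13.97 in D+P. The D arrays lay above all C and C+P arrays and overlapped those of D+P, and C replicate 1 was the lowest. Its change was 0.52 (95% interval 0.10 to 0.94), with a limma adjusted p of 0.357, and signal from this pseudogene may include RNA of *Atp5c1*, whose own difference was 0.11. *Atp5sl* read 11.93, 11.70 and 11.74 in C, 10.99, 11.85 and 11.74 in C+P, 10.68, 11.55 and 11.49 in D, and 11.08, 11.54 and 11.53 in D+P. All D arrays lay below those of C, with D replicate 1 the lowest of the 12. Its change was -0.35 (95% interval -0.79 to 0.10).

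**Figure D3:**
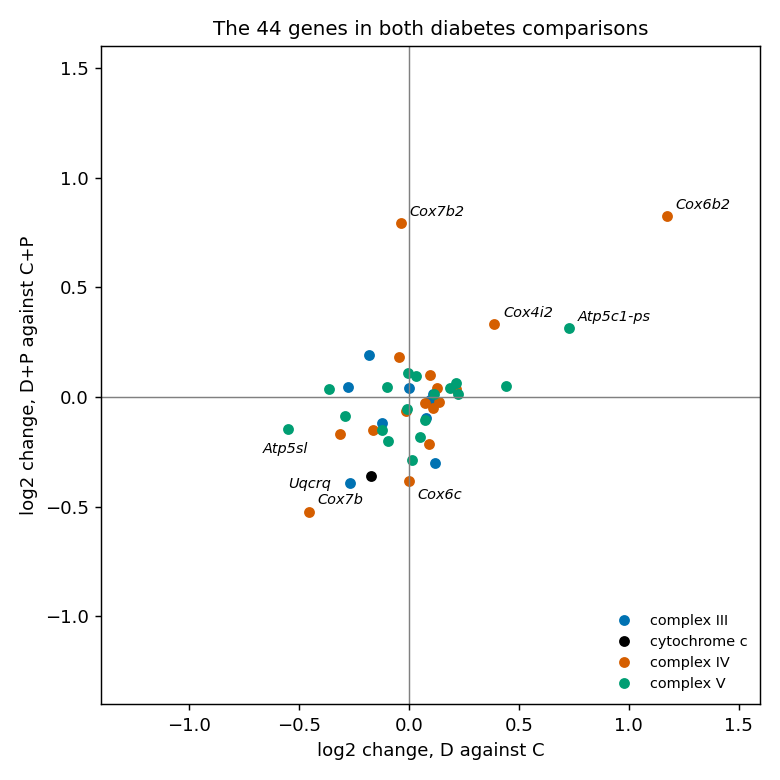
Log2 change of the 44 genes in D versus C (horizontal axis) and in D+P versus C+P (vertical axis), coloured by complex, with both axes on the same scale and no arrays shared between them. *Cox6b2* lies at 1.17 and 0.83, *Cox7b2* at -0.04 and 0.79, and most other genes lie near the origin.

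With pargyline, 0 of the 44 genes passed in C+P versus C in limma (0.0324% of all probes did), and 0 were below an unadjusted p of 0.05 (4.5% of all probes). The C+P arrays did not overlap those of C for 2 genes, *Cox4i1* higher and *Cycs* lower, beside 15.6% of all probes. The median change was -0.02. In D+P versus D, 0 of the 44 passed (0.0% of all probes), and 0 were below an unadjusted p of 0.05 (13.4% of all probes). The groups did not overlap for 4 genes, *Uqcrb*, *Cox8b*, *Atp5g2* and *Atp5g3*, all lower in D+P by their brightest probes, beside 17.1% of all probes. Other tested probes of *Uqcrb*, which were not required to be well above background, gave 0.21 and -0.30 and that of *Atp5g3* 0.33, all with overlap. The median change was -0.12 beside -0.01 over all probes, with 28 of the 44 lower. In the same comparison all 6 endothelial markers were higher (median 0.12) and all 4 tested adipocyte markers lower (median -0.55). Of 11 cardiomyocyte markers 8 were lower (median -0.05). The part of these cell types in the family median was not tested.

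In the interaction 0 of the 44 passed (0.00648% of all probes), and 0 were below an unadjusted p of 0.05 (7.07% of all probes). The median was -0.10, and the median SE was 0.27. The interval lay within 1 of 0 for 32 of the 44 genes, fewer than the 38 in D versus C. *Cox7b2* had the largest value, 0.83 (95% interval -1.81 to 3.47).

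After quantile normalisation the median of the family on an array had a pooled SD within groups of 0.07. Of the family, 29 genes lay in the top 1% of intensity, with a median percentile of 99.3. Quantile normalisation gives every array the same set of values at such ranks, so a shift shared by the family could be partly removed. That SD and a small median change therefore cannot show that the family was steady. With 75th percentile scaling the family medians of the 12 arrays lay between -0.18 and 0.31. After quantile normalisation the median SD of a single member within groups was 0.21 beside 0.33 over all probes. D replicate 1 had the widest spread of members around their means, with an interquartile range of 0.53 beside 0.11 to 0.28 on the other arrays. It was also the widest array over all tested probes, at 0.73 beside 0.31 to 0.58. Of the 44 genes, 12 had their lowest and 9 their highest value of the 12 arrays there. Single arrays also set the sign of some small changes in diabetes averaged over pargyline: *Cyc1* was at -0.09 and turned to 0.04 without C+P replicate 1, *Cox7b2* was at 0.38 and turned to -0.19 without that same array, and *Cox8b* turned to 0.04 without D+P replicate 1. Scaling each array by its 75th percentile in place of quantile normalisation moved the median change to 0.19 in D versus C, with 81.8% of members higher in place of 54.5%. It moved the median to -0.092 in D+P versus C+P (20.5% higher in place of 47.7%), to 0.03 in diabetes averaged over pargyline (59.1% in place of 50.0%) and to 0.14 in C+P versus C, where the sign turned (84.1% in place of 43.2%). It gave -0.15 in D+P versus D (20.5% in place of 36.4%) and -0.34 in the interaction (11.4% in place of 34.1%), while the median over all probes stayed within 0.05 of 0.

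**Figure D4:**
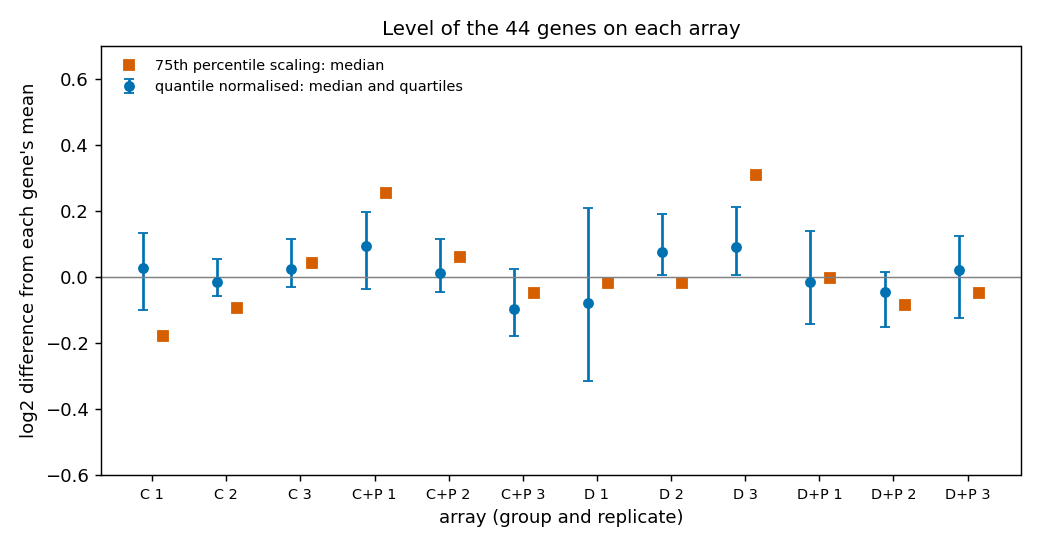
Difference of the 44 genes from their own means over 12 arrays (vertical axis, log2) on each array, as the median with quartiles after quantile normalisation (blue) and as the median after 75th percentile scaling (orange). The blue medians lie between -0.10 and 0.09, D replicate 1 has the widest quartiles, and the orange medians reach 0.31 on D replicate 3.

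Several probes of a gene often differed in direction. Of the 17 genes with at least 2 tested probes, the probes had mixed signs for 9 in D versus C, 6 in D+P versus C+P, 7 in diabetes averaged over pargyline, 12 in C+P versus C, 7 in D+P versus D and 9 in the interaction. The widest gap in diabetes averaged over pargyline was in *Uqcrb*, whose tested probes gave 0.02, -0.18 and -0.92. Probes were tested on a positive and significant signal, which does not require a level well above background. A gap between probes can therefore rest on a dim probe.

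The factors that build and regulate the complexes were taken from lists. Of 6 complex III assembly genes, 0 passed, and all 6 were lower in D+P versus C+P, with a median of -0.46, while in D versus C 4 were higher and the median was 0.09. In diabetes averaged over pargyline the median was -0.19, with 2 higher, and in C+P versus C it was 0.23, with 5 higher. Of these, *Uqcc1* and *Uqcc3*, needed for making cytochrome b, had values of -0.84 and -0.79 in D+P versus C+P. With normexp background correction the D versus C median of this list turned to -0.02, and the C+P versus C median moved to 0.05, with 3 higher. The D+P versus C+P median moved to -0.32, with all 6 lower. Of 26 complex IV assembly genes 0 passed, and in diabetes averaged over pargyline 17 were lower, with a median of -0.11 and a range from -0.63 (*Pet117*) to 0.41 (*Cox16*). In D+P versus C+P 20 were lower, with a median of -0.16, and in D versus C 14 were higher, with a median of 0.03. With normexp background correction these medians were -0.08 (21 lower) and 0.07 (15 higher). For 10 of the 26 genes, 6 higher and 4 lower, D was separate from C, a share of 38.5% beside 22.4% of all probes. Of 6 genes listed for complex V, 4 haem-related genes, 13 nuclear regulators and 7 tested genes listed for adenine nucleotide and phosphate transport, 0 passed in any of the 6 contrasts. The complex V list holds *Atpif1*, *Usmg5* and *2010107E04Rik* beside assembly factors. The haem-related genes are *Alas1*, *Fech*, *Fdx1l* and *Fdxr*, and the transport list takes in the *Vdac* porins and *Ckmt2*. Among the regulators, 5 were higher and 8 lower in diabetes averaged over pargyline, with a median of -0.09 and a range from -0.37 to 0.35. Of these, *Esrra*, a nuclear receptor that drives respiratory genes, had a value of -0.37, and its coactivator *Ppargc1a* 0.22. The 4 subunits of mitochondrial DNA on the array (*CYTB*, *COX1*, *COX2* and *ATP8*), added after the results were seen, had 0 that passed and a median of -0.00.

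Other gene families of the mitochondrion and of translation are given side by side, with no test of the differences. In D+P versus C+P, the median was -0.16 for 45 complex I genes (6 higher), -0.19 for 77 mitochondrial ribosomal genes (10 higher) and -0.02 for the 44 genes described here (21 higher). It was 0.01 for 97 cytosolic ribosomal genes taken by name (52 higher). That name pattern also takes in 10 S6 kinase genes, all tested except *Rps6ka6*, and without them, a choice made after the values were seen, the median was 0.03 over 88 genes. In D versus C the medians were -0.02, -0.01, 0.02 and 0.05 in the same order, and 0 genes of any of these families passed. In C+P versus C the medians were 0.05 for complex I (31 higher), 0.07 for mitochondrial ribosomal genes (50 higher), -0.02 for the 44 genes (19 higher) and -0.01 for cytosolic ribosomal genes (46 higher). With 75th percentile scaling, an alternative added for these families after the values were seen, the D+P versus C+P medians in the same order were -0.21, -0.26, -0.092 and -0.04, so that the last turned in sign, with 1, 4, 9 and 41 genes higher. In D versus C they were 0.15, 0.10, 0.19 and 0.21, so that complex I and the mitochondrial ribosomal genes turned in sign, and in C+P versus C 0.16, 0.11, 0.14 and 0.09, so that the 44 genes and the cytosolic ribosomal genes did. With normexp background correction the mitochondrial ribosomal genes turned to 0.03 in D versus C and the cytosolic ribosomal genes to 0.01 in C+P versus C.

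Promoter windows of 300 bases, from 250 before to 50 after the start, were matched by symbol to 34 of the 45 genes. The NRF1 letters (GCGCA, any base, then GCGC) were present in 8 of the 34 (23.5%), beside 5.19% of 27025 genes. The ETS letters CCGGAAG were present in 10 (29.4% beside 9.93%) and the YY1 letters AAGATGGC in 4 (11.8% beside 3.19%). The CREB letters TGACGTCA were present in 2, *Cycs* and *Uqcrfs1* (5.88% beside 2.03%), and the ERRA letters TCAAGGTCA in 1, *Atp5g3* (2.94% beside 0.466%). Both strands were searched, and none of these motifs holds another. NRF1 matches were found in 6 of 16 complex V genes, 1 of 12 complex IV genes and 1 of 5 complex III genes. The windows held a median of 19 CpG dinucleotides beside 7 over all genes, and that of *Cox6b2* held 10. These are matches of letters and no binding was measured.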

How the data were processed

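Messenger RNA of 12 hearts was measured on single-channel Agilent arrays, 1 per mouse. The authors labelled 200 ng of RNA with Cy3, and the deposited scanner files give spot intensity on a linear scale, with background subtracted by Feature Extraction (12.0.0.7 in the file headers, a version other than that in the methods). The table deposited for the series holds intensity that the authors quantile normalised, for 47757 spots, and served as an alternative.

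Here the scanner intensity was log2 transformed and quantile normalised without control spots. Outlier spots were set to missing and repeated spots averaged. Of 56605 probes, 30857 were tested, those whose signal was positive and significant on 50% or more of each group's arrays. The model (limma 3.58.1 under R 4.3.3, with lmFit, eBayes, a mean for each group, 8 residual and 2.61 prior degrees of freedom over 12 arrays) was two-sided, with Benjamini-Hochberg adjustment over all tested probes. Precision is limited by the 3 arrays per group. The script was tested on simulated data. Tables and figures used data.table (version 1.17.8), Python 3.11.15, pandas 2.3.3, numpy 2.4.6, scipy 1.17.1 and matplotlib 3.10.9.

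The members and lists were chosen with earlier results of these data known. Named were members that passed, the 3 largest changes in diabetes and in the interaction within each complex, *Cycs*, *Cyc1*, *Uqcrfs1*, *Atp5a1* and *Atp5b*, and tissue isoforms. Lists are described by counts and medians without a test. Cytosolic ribosomal genes were taken by a name pattern that also holds S6 kinases. Samples were grouped by their labels. Alternatives were the scaling, background correction, filters, the authors' own table, array weights, blocks, the methods' t-test, and each array left out.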

Additional observations from a re-analysis of the deposited data

How the results depend on the processing

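In diabetes averaged over pargyline the call of *Cox6b2* was lost, so that 0 members passed, without the filter on dim probes (adjusted p 0.0532), with the replicate block (0.0973) and with a block for the slide column (0.169). When 1 array was left out, between 0 and 1 members passed. With array weights 1 member, *Cox6b2*, passed in D versus C. Scaling by the 75th percentile moved the median of the 44 genes to 0.19 in D versus C, -0.092 in D+P versus C+P, 0.14 in C+P versus C and -0.34 in the interaction, and the cause was not tested. The replicate numbers only name the samples: deviations of arrays with the same number correlated between -0.20 and 0.20, no pairing was taken from them, and the block changed no other call. The 3 arrays left out together were chosen after seeing the data, at a repeated-spot variation above 12%, a limit that leaves D+P with the other two arrays. Of 3897 values of named genes under alternatives, 3812 kept their direction or moved by less than the spread, 70 moved further, 14 lost the call (1 gene, *Cox6b2*), 1 gained one and 0 reversed as calls.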

Other observations

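*Kmt5c* (*Suv420h2* in the files) was the one annotated neighbour of *Cox6b2* on chromosome 7 with a probe matched by name, and does not overlap it. *Gm24537* and *Gm42369*, also annotated beside it, had none. The *Kmt5c* probes differed by -0.12 and 0.02 in diabetes averaged over pargyline, beside 1.00 for *Cox6b2*. This gene was looked up after the *Cox6b2* values were seen.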
